A study of Mus musculus with 9 samples.

Results

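The genes described here encode the proteasome, with its regulators and assembly factors, in mouse liver. They were chosen by name alone: every gene whose symbol starts with Psma to Psmg followed by a number was taken, which gave 49 of the 27945 genes with a count in at least 1 library. Of these, 48 passed the filter on low counts and were tested among 18113 genes, and Psmb11 did not pass it. The rule used no measured value.

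The proteasome is the barrel-shaped protease that degrades ubiquitin-tagged proteins in the cytosol and nucleus. Its 20S core has outer rings of alpha subunits and inner rings of beta subunits, of which Psmb5, Psmb6 and Psmb7 carry the chymotrypsin-like, caspase-like and trypsin-like activities. The 19S cap binds ubiquitin chains and unfolds substrates with its Psmc ATPases. Interferon-gamma is known to induce the alternative catalytic subunits Psmb8, Psmb9 and Psmb10, which take the places of Psmb5, Psmb6 and Psmb7 in newly built immunoproteasomes, and the activator PA28, made of Psme1 and Psme2. Immunoproteasomes are known for making peptides that suit MHC class I. They are abundant in cells of blood origin, and hepatocytes at rest are known to hold mainly the constitutive form.

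Polyadenylated liver RNA was sequenced in 9 libraries of 3 groups, 3 control, 3 model and 3 treated, from a series titled for liver damage caused by gefitinib, an inhibitor of the epidermal growth factor receptor kinase. The labels give tissue (liver, though the titles speak of liver cells) and the words control, model and treated. They do not give the agent of the treated group, nor any dose, time, age, sex, strain or batch. Whether a group's libraries are from separate mice is not stated, so p-values here reflect only the spread between libraries, which may be technical.

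Library totals were 56440871 to 60665156 estimated counts. Levels are given as CPM, counts relative to a library size scaled by TMM, a trimmed mean of ratios between libraries. Proteasome genes together took 0.257 to 0.291% of counts in control, 0.284 to 0.308% in model and 0.319 to 0.340% in treated libraries. On the TMM scale their sum overlapped between the groups, at 2840 to 2980 CPM in control, 2930 to 3250 in model and 2970 to 3040 in treated libraries. The hepatocyte markers summed to 102000 to 115000 CPM in control, 102000 to 107000 in model and 78700 to 97800 in treated libraries. Much of this sum was 1 gene, Alb, with means of 58500, 59200 and 49900 CPM in the 3 groups. In bulk RNA, fewer cells of a type and less RNA per cell cannot be told apart.

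Levels between genes were compared per length, as the sum of FPKM (a measure of fragments that corrects for transcript length and sequencing depth) over a gene's transcripts, averaged over the 9 libraries. The core and cap subunits were the most abundant, led by the alpha subunit Psma7 at 109 FPKM, the caspase-like subunit Psmb6 at 108 and the structural beta subunit Psmb4 at 92.9. Psme1 ranked 5th, at 78.4 FPKM, and Psme2 lay at 63.2, close to Psmb7 at 63.8. The immunoproteasome catalytic subunits were lower, with Psmb10 at 22.7, Psmb8 at 22.4 and Psmb9 at 10.1 FPKM. Assembly chaperones were lower than most subunits: the 19S chaperones Psmd5, Psmd9 and Psmd10 ran from 5.83 to 8.50 FPKM and the 20S chaperones Psmg1 to Psmg4 from 12.4 to 15.7. The germ cell alpha subunit Psma8 lay at 0.61 FPKM, and the thymus subunit Psmb11 had counts in 2 of 9 libraries, 12 in model 2 and 4 in treated 3.

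**Figure D1:**
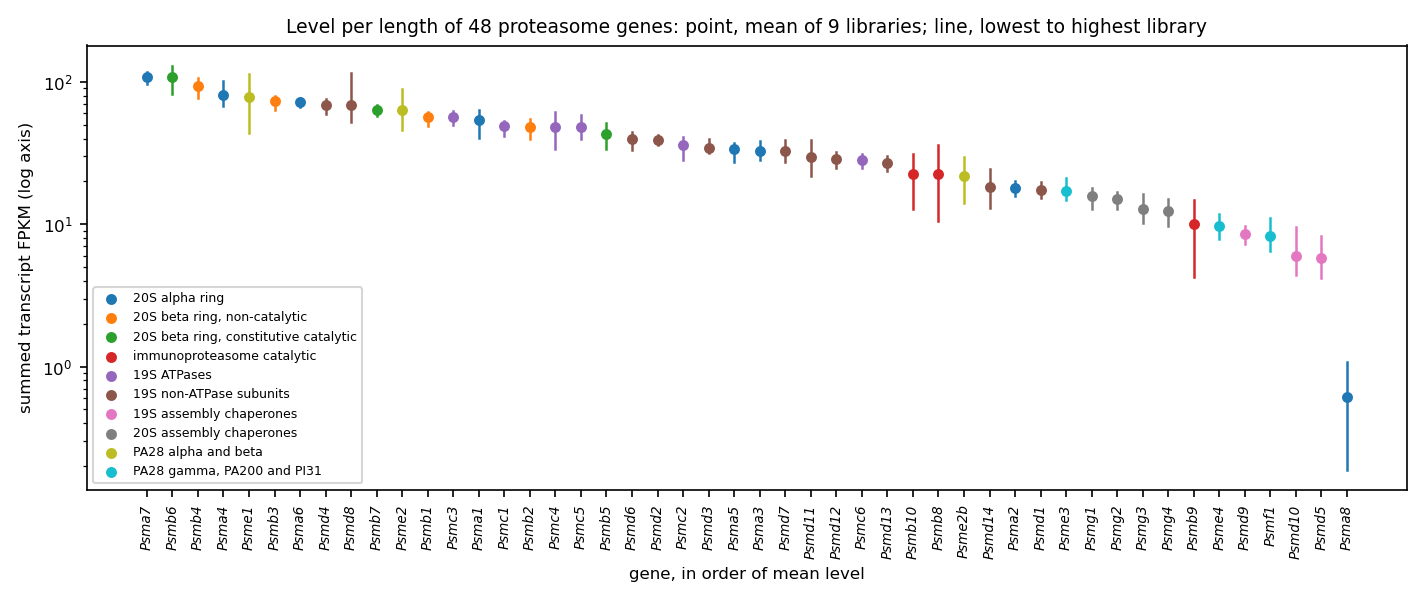
Level per length of the 48 tested genes on a log axis, as summed transcript FPKM. Points are means of 9 libraries, lines run from the lowest to the highest library, and colours mark roles. Core and cap subunits lie to the left, up to Psma7 at 109 FPKM. Psmb8, Psmb9 and Psmb10 have long lines, and Psma8 is lowest at 0.61.

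In model against control libraries, only the PA28 alpha gene Psme1 rose, and the core and cap genes showed small differences in either direction. This was 1 of 48 tested genes called higher at a Benjamini-Hochberg adjusted p under 0.05 (edgeR quasi-likelihood test), or 2.08%, beside 0.519% of all genes, and 0 of 48 called lower, beside 0.596%. At an unadjusted p under 0.05 there were 7 of 48 (14.6%), close to the 13.9% of all genes. The libraries of the 2 groups did not overlap for 8 genes that were higher in model, 16.7% beside 9.71% of all genes, and for 0 that were lower, beside 10.2%.

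Psme1 lies on chromosome 14 at 55578123 to 55581528 (GRCm38, plus strand), 5912 bases before Psme2 (55587441 to 55591113, minus strand). The sequences around their RefSeq start sites (GRCm38.p6) are shown because these neighbours gave the smallest adjusted p of the proteasome genes in treated against control. For Psme1, capitals mark a match to the core of the interferon-stimulated response element, searched on both strands as GAAA, any 2 bases, then GAAA, and found here in reverse and inside an annotated 5′ UTR exon. The Psme2 stretch covers positions -200 to -13 from the start, outside annotated exons, and holds no match to the motifs searched.
Psme1, chr14:55578493-55578522, plus strand: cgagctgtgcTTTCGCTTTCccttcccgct
Psme2, chr14:55591114-55591301, minus strand: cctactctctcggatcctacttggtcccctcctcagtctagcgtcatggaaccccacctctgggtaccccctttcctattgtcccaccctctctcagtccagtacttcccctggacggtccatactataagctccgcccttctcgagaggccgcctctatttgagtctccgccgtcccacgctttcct

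Psme1 had 71.3, 68.6 and 57.9 CPM in control libraries 1 to 3, 106, 102 and 103 in model and 111, 115 and 133 in treated libraries. The 3 groups did not overlap, with every model library above every control library and every treated library above every model library. The log2 fold change was 0.65 (SE 0.11) for model against control, an increase of 1.57-fold with an adjusted p of 0.0209. It was 0.21 (SE 0.11) for treated against model, with an adjusted p of 0.283, and 0.86 (SE 0.11) for treated against control, with an adjusted p of 0.000527. The call of model against control was lost in 6 of 17 alternatives, with adjusted p from 0.0598 to 0.0776: with the replicate number as a block, and without control 2, control 3 or any 1 of the 3 model libraries. Emc9, on the opposite strand, shares 13 bases with Psme1.

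Psme2, the PA28 beta gene, had 48.5, 51.3 and 48.7 CPM in control, 63.8, 64.2 and 63.0 in model and 79.1, 74.5 and 83.1 in treated libraries. These groups did not overlap either, and Psme2 was higher in each step. For model against control it had a log2 fold change of 0.36 (SE 0.08) and an adjusted p of 0.0703. Psme2 rose in treated against model, by 0.31 (SE 0.08) with an adjusted p of 0.0409, and in treated against control, by 0.67 (SE 0.08) with an adjusted p of 0.000448. The treated against model call was lost in 14 of 18 alternatives, among them each of the 9 fits that left out 1 library, with adjusted p from 0.054 to 0.132.

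Psme2b, on chromosome 11 at 48945354 to 48946190, is an intronless copy of Psme2. Their coding sequences of 717 bases differ at 5 positions, an identity of 99.3%. Of windows of 75 bases in them, a length chosen here, 59.4% are the same. Reads that lie in shared stretches can be divided between these genes by estimation only. The 120 bases from coding position 424 to 543 hold 3 of the 5 differences, in capitals. They are shown because no coding stretch of that length holds more.
Psme2: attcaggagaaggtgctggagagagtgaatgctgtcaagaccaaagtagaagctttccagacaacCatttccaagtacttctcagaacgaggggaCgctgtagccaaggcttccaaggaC
Psme2b: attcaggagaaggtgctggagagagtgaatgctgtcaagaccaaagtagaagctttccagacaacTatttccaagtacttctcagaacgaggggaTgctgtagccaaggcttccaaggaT

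Psme2b took 21.6 to 32.8% of the summed counts of the pair, with the highest share in control 1. Its level was 23.6, 14.6 and 17 CPM in control, 18, 20.7 and 19.5 in model and 24.8, 20.5 and 25.2 in treated libraries. Its groups overlapped in each comparison, and it was not called with all 9 libraries. Without control 1, its highest control library, it was called higher in treated against control. With the counts of both genes summed, the log2 fold change of treated against model was 0.30, with an adjusted p of 0.0601, so the call was lost.

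Among the immunoproteasome catalytic subunits, 0 of 3 were called in model against control, 0 of 3 in treated against model and 1 of 3, Psmb10, in treated against control. Of all genes, 0.519%, 5.21% and 9.36% were called higher and 0.596%, 4.44% and 8.47% lower in these comparisons. With shares of that size, 0 of 3 is not a result about these subunits. Psmb10, the counterpart of Psmb7 on chromosome 8 at 105935735 to 105938104, had 26.9, 20 and 27.7 CPM in control, 40.0, 35.6 and 29.6 in model and 34.4, 36.9 and 42.4 in treated libraries. Model and treated libraries overlapped, and all of them were above the control libraries. The log2 fold change was 0.50 (SE 0.15) for model against control, with an adjusted p of 0.166, and 0.11 (SE 0.15) for treated against model, with an adjusted p of 0.721. Psmb10 rose in treated against control by 0.61 (SE 0.15), with an adjusted p of 0.0194. That call was lost without control 2 (adjusted p 0.064) and without treated 3 (adjusted p 0.0692).

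Psmb8 and Psmb9 lie 9956 bases apart on chromosome 17 in the MHC region, with the peptide transporter gene Tap1 between them. Psmb8, the counterpart of Psmb5, had 39.8, 21.2 and 29 CPM in control, 37.8, 43.8 and 35.8 in model and 49.4, 37.6 and 57.8 in treated libraries. Control 2 was lowest, and control 1 lay above treated 2, so the groups overlapped. It had log2 fold changes of 0.38 for model against control and 0.30 for treated against model, with adjusted p of 0.508 and 0.470, and of 0.69 (SE 0.22) for treated against control, with an adjusted p of 0.0631. That difference was called in 5 of 17 alternatives, by DESeq2 (adjusted p 0.0174), by limma-voom (0.048), without control 1 (0.0122), without treated 2 (0.0371) and with library size only (0.0299).

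Psmb9, the counterpart of Psmb6, had 21.1, 7.36 and 14.6 CPM in control, 12.4, 19.4 and 17 in model and 18.7, 14.1 and 23.4 in treated libraries. Control 2 was again lowest, and control libraries 1 and 2 spanned most of the range of all 9. The adjusted p was 0.894, 0.801 and 0.529 for model against control, treated against model and treated against control. The log2 fold changes were 0.18, 0.20 and 0.38, and for the last 2 SE on either side gave -0.34 to 1.10. Single libraries moved these values: treated against control was 0.77 without control 1 and 0.068 without control 2, and treated against model was 0.37 without treated 2 and 0.0093 without treated 3. Psmb9 and Tap1 share 212 bases on opposite strands, and it is not stated whether counting used strand.

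The constitutive catalytic subunits were not called in any of the 3 comparisons. With at most 9.36% of all genes called higher and 8.47% lower in a comparison, 0 of 3 is not a result about these subunits either. Psmb5 had 40.7, 37.8 and 47.9 CPM in control, 47.5, 43.4 and 42.6 in model and 45.7, 43.0 and 45.1 in treated libraries. Psmb6 had 96.9, 82.2 and 103 CPM in control, 99.3, 93.9 and 92.7 in model and 103, 102 and 105 in treated libraries. Both overlapped between control and treated libraries. For treated against control, the log2 fold change was 0.08 for Psmb5, with -0.13 to 0.29 covered by 2 SE on either side, and 0.13 for Psmb6, with -0.07 to 0.34.

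Psmb7 had 90.7, 95.9 and 89.7 CPM in control, 97.3, 79.9 and 79.8 in model and 66.6, 83.7 and 78.5 in treated libraries. All treated libraries were below all control libraries. For treated against control this gave a log2 fold change of -0.27 (SE 0.12) and an adjusted p of 0.133. In the other comparisons the constitutive catalytic genes ran from -0.10 for Psmb7 to 0.08 for Psmb5 (model against control) and from -0.17 for Psmb7 to 0.12 for Psmb6 (treated against model). Psmb7 shares 6571 bases with Nek6 on the opposite strand, which had a similar mean count (4610 beside 4960).

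**Figure D2:**
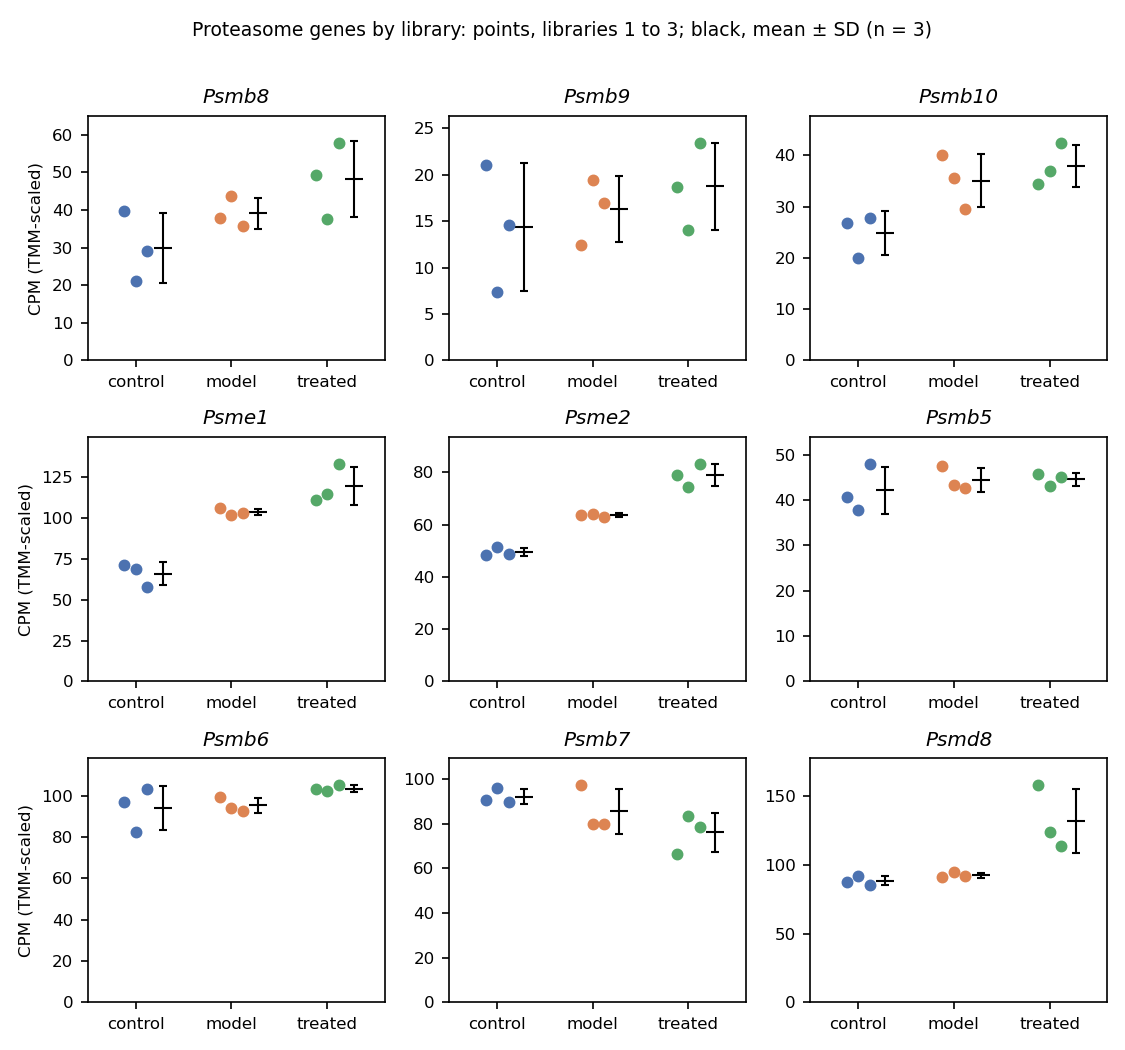
CPM of 9 genes in each library, with points for libraries 1 to 3 of each group and a black mark for the mean and SD (n = 3); each axis starts at 0. The groups of Psme1 and Psme2 do not overlap, Psmb8 and Psmb9 spread widely in control, and for Psmd8 the treated libraries, at 114 to 158 CPM, are above the other 6.

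Ratios of an immune to a constitutive catalytic subunit within a library do not depend on scaling, and 9 were tested (3 pairs in 3 comparisons). With 3 libraries a group, the exact two-sided permutation test cannot give a p under 0.1. The count ratio of Psmb10 to Psmb7 was 0.296, 0.209 and 0.309 in control, 0.411, 0.446 and 0.371 in model and 0.517, 0.441 and 0.541 in treated libraries. All model and treated ratios were above all control ratios, while model and treated ratios overlapped. The log2 difference was 0.61 for model against control and 0.90 for treated against control, each with an exact permutation p of 0.1 and an adjusted p of 0.36.

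For Psmb8 to Psmb5 the count ratio was 0.978, 0.561 and 0.605 in control, 0.795, 1.01 and 0.841 in model and 1.08, 0.874 and 1.28 in treated libraries. The groups overlapped in every comparison, and the log2 difference of treated against control was 0.62, with an exact permutation p of 0.2. For Psmb9 to Psmb6 the groups overlapped too, and that difference was 0.34, with an exact permutation p of 0.6. It was 0.66 without control 1 and 0.016 without control 2. Adjusted over the 9 tests, p ran from 0.36 to 0.8. Per length, the mean ratio in control, model and treated libraries was 0.409, 0.502 and 0.618 for Psmb8 to Psmb5, 0.0823, 0.0936 and 0.0986 for Psmb9 to Psmb6, and 0.248, 0.372 and 0.454 for Psmb10 to Psmb7. On this measure, summed transcript FPKM, the constitutive subunit thus had the higher mean level in each pair and group. On gene FPKM, used for the tests, the mean log2 ratio of Psmb10 to Psmb7 in treated libraries was -0.0035 (SD 0.15), near equal levels. For Psmb8 to Psmb5 and Psmb9 to Psmb6 it was -1.82 and -3.47.

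**Figure D3:**
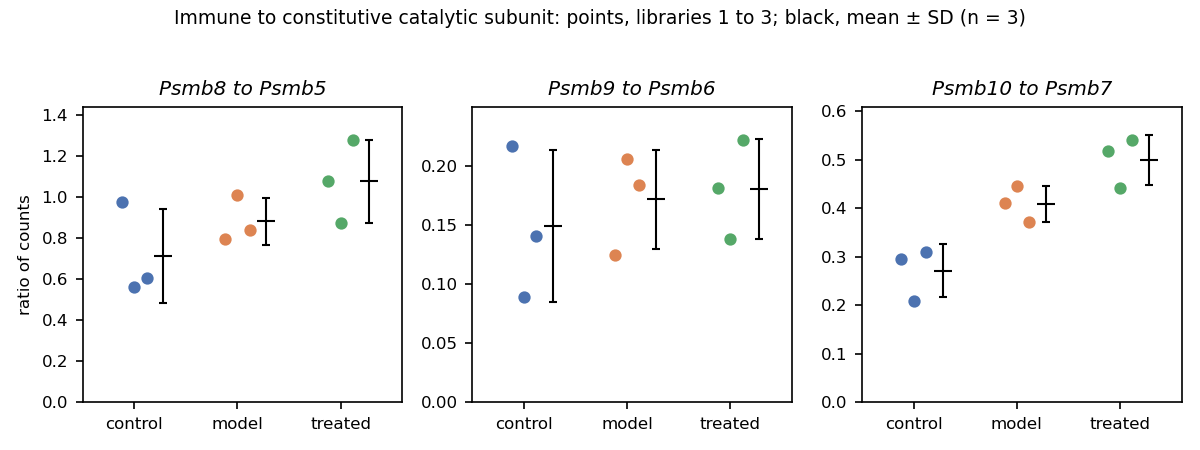
Count ratio of each immunoproteasome subunit to the constitutive subunit it replaces, by library, with the mean and SD of 3 libraries in black and axes from 0. For Psmb10 to Psmb7 the control ratios, 0.209 to 0.309, lie below the other 6 libraries; the other pairs overlap.

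In treated against model libraries, 2 of 48 tested genes rose, Psme2 and the cap subunit Psmd8, and 0 fell. These shares were 4.17% and 0%, beside 5.21% of all genes called higher and 4.44% called lower. Libraries did not overlap for 4 genes higher and 2 lower, or 8.33% and 4.17%, beside 16.2% and 15% of all genes. At an unadjusted p under 0.05 there were 3 of 48 (6.25%), beside 24.1% of all genes.

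In treated against control libraries, 4 of 48 rose, namely Psme1, Psme2, Psmb10 and Psmd8, or 8.33% beside 9.36% of all genes, and 0 fell, beside 8.47%. The share that rose was close to the background. Of the 5 immune genes (Psmb8, Psmb9, Psmb10, Psme1 and Psme2) 3 rose, and of the other 43 tested genes 1 rose. Libraries did not overlap for 13 genes higher and 7 lower, or 27.1% and 14.6%, beside 19.3% and 18% of all genes. At an unadjusted p under 0.05 there were 15 of 48 (31.2%), beside 31.6%. The 3 comparisons share libraries, so their values are not independent of each other.

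The 5 immune genes had a positive log2 fold change in each comparison, with a median of 0.38 for model against control, 0.21 for treated against model and 0.67 for treated against control. The 31 constitutive core and cap subunits, Psmd8 among them, had medians of 0.05, -0.09 and -0.06. Over all 18113 genes the medians were -0.00, 0.01 and -0.01. Of the 31, the number with a positive value was 20, 9 and 14. That direction depended on the scaling: with library size alone, the median of all genes shifted to 0.04, 0.17 and 0.20, that of the 31 subunits was 0.09, 0.08 and 0.15, and 24, 26 and 26 were positive. The median of the 31 then lay below that of all genes in both comparisons with treated libraries, as it did with TMM.

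**Figure D4:**
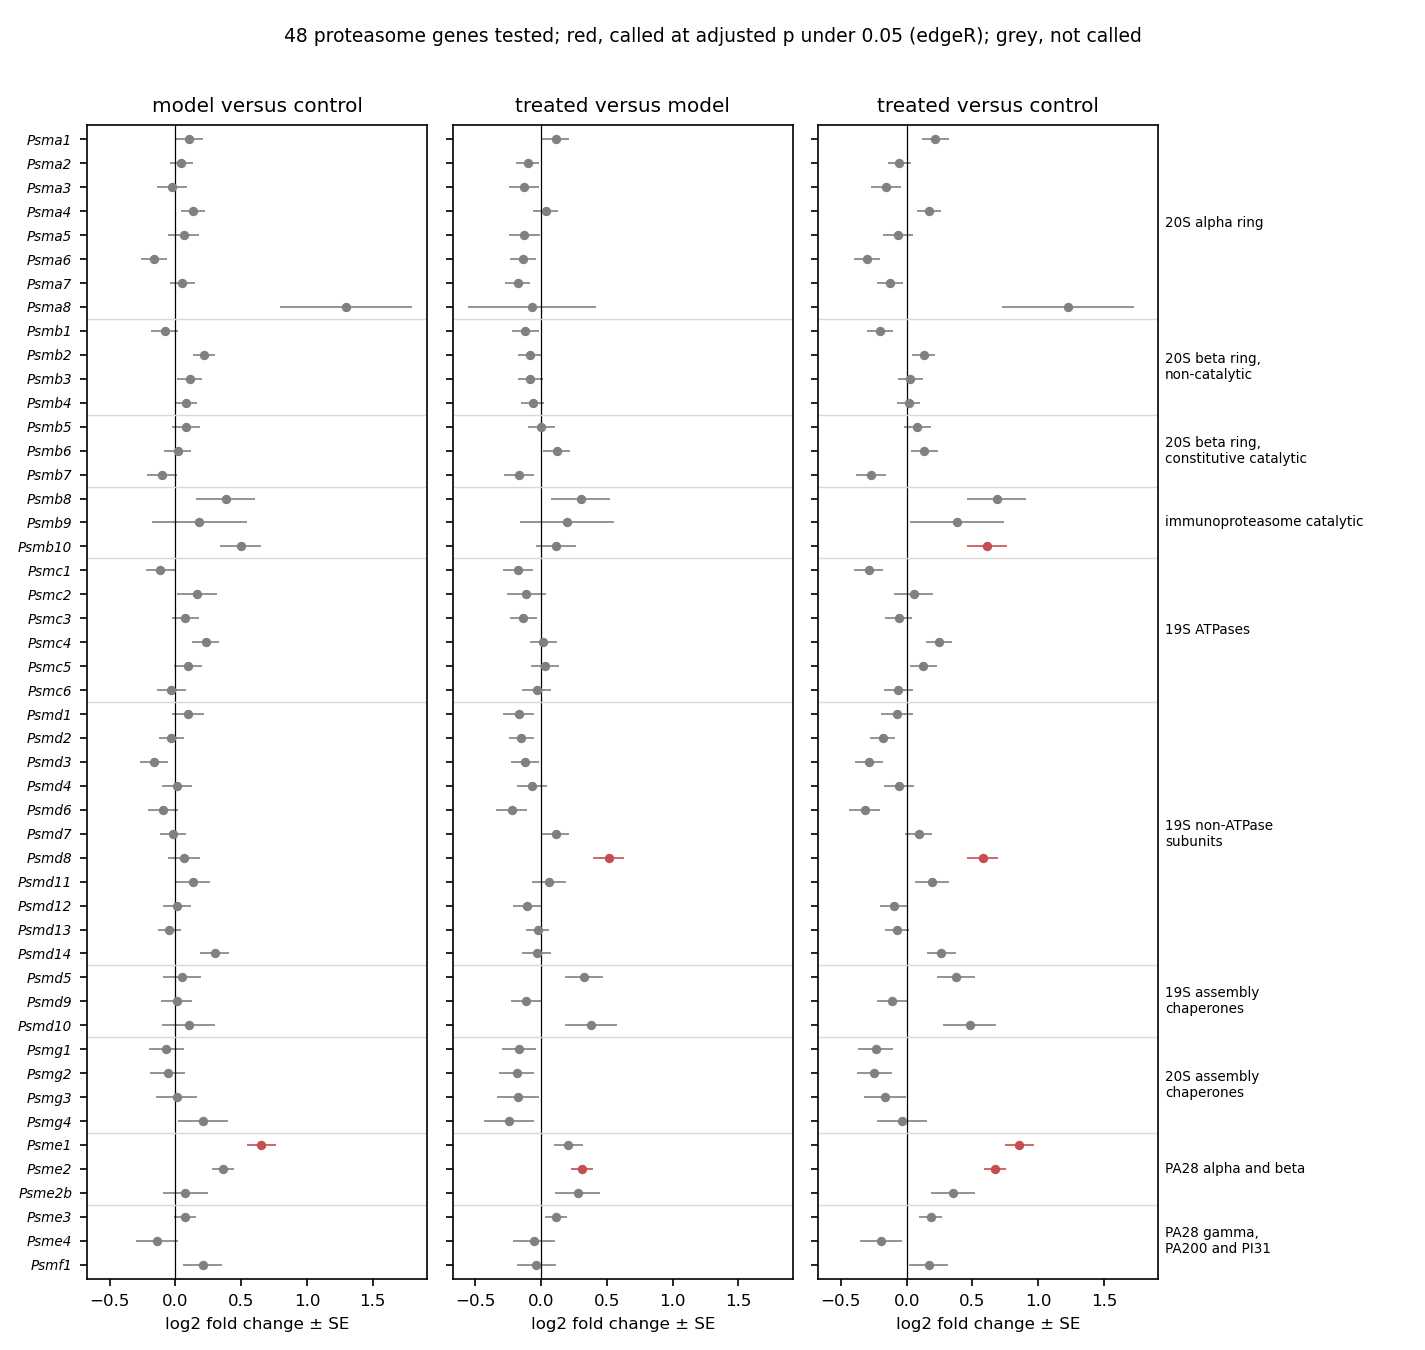
Log2 fold change (points) and SE (bars) of the 48 tested genes by role in the 3 comparisons, all on 1 scale, with red for adjusted p under 0.05 (edgeR) and grey for the rest. Red points are Psme1 in the first panel, Psmd8 and Psme2 in the second, and Psmb10, Psmd8, Psme1 and Psme2 in the third. Most core and cap points lie near 0, and Psma8 has the widest bars.

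Psmd8 encodes the 19S lid subunit also known as Rpn12 and was the 1 constitutive subunit called. It had 87.7, 92.1 and 85.6 CPM in control, 91.1, 94.6 and 91.8 in model and 158, 124 and 114 in treated libraries. The 3 treated libraries were above the other 6, and control and model libraries overlapped. The log2 fold change was 0.51 (SE 0.12) for treated against model, with an adjusted p of 0.0232, and 0.58 (SE 0.12) for treated against control, with an adjusted p of 0.00753. For model against control it was 0.06, with an adjusted p of 0.883. The treated against model call was lost without any 1 of the model libraries or treated 1 (adjusted p 0.051 to 0.0836).

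Psmd8 lies on chromosome 7 at 29174188 to 29180673, minus strand. Its upstream sequence, from -200 to -29 of the RefSeq start, is shown beside those of Psmb6 and Psmb5, constitutive subunits that were not called. In the latter, capitals mark matches to the core of the antioxidant response element, searched as TGACNNNGC on both strands, the element that NRF2 (Nfe2l2) and NRF1 (Nfe2l1) are known to bind.
Psmd8, chr7:29180702-29180873, minus strand: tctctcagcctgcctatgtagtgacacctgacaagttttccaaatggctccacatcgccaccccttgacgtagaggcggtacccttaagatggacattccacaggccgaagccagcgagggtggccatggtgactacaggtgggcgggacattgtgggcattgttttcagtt
Psmb6, chr11:70525257-70525356, plus strand: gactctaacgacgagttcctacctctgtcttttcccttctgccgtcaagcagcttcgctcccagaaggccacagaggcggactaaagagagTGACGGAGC
Psmb5, chr14:54618026-54618125, minus strand: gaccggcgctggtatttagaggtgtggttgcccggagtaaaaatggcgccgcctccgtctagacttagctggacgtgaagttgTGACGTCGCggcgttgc

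RefSeq windows from 250 bases before to 50 after a start were at hand for 41 of the 49 genes, as 44 windows. The antioxidant core was in 6 of these 44 windows (13.6%), those of Psmb5, Psmb6, Psmc6, Psmd9, Psmd12 and Psme4, beside 12.4% of 32851 mouse windows. The interferon response core was in 5 (11.4%), those of Psmb3, Psmd4, Psmd9, Psme1 and Psmg4, beside 3.44%. The gamma-activated site TTCNNNGAA was in 3 (6.82%), those of Psmb8, Psmd2 and Psmg1, beside 8.30%. The interferon core thus fell in the windows of 4 genes that were not called as well as in that of Psme1. These are letter matches only.

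The Psmd8 transcripts are annotated as coding or as retaining an intron. The summed FPKM of the coding ones was 48, 47.5 and 46.1 in control, 47.9, 54.3 and 54.8 in model and 100, 75.2 and 65.2 in treated libraries. Retained-intron transcripts summed to 7.90, 4.78 and 7.72 FPKM in control, 4.67, 4.88 and 4.25 in model and 15.9, 13 and 14.6 in treated libraries. On both sums the treated libraries were above the other 6. The estimated split among coding transcripts differed between libraries of 1 group: the transcript with the highest mean, ENSMUST00000182328, had 81.2 and 61.2 FPKM in treated 1 and 2 but 23.5 in treated 3.

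**Figure D5:**
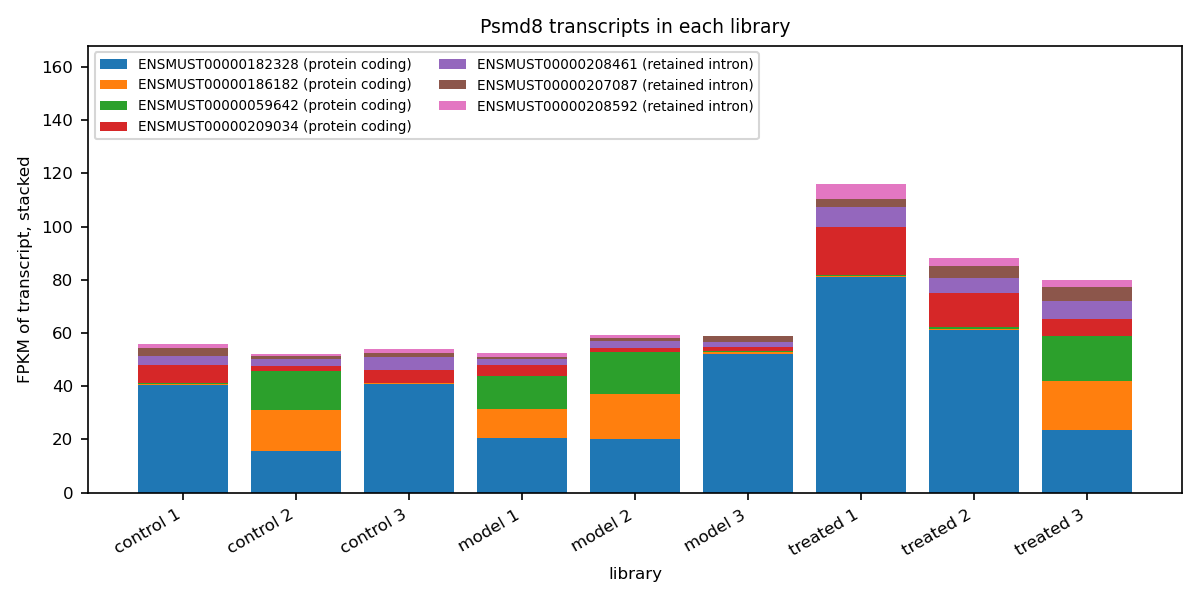
Stacked FPKM of the 7 Psmd8 transcripts in each library, coloured by transcript, with the annotated type in the legend. Treated bars are the tallest, and in control 2, model 1, model 2 and treated 3 the coding sum is divided among 3 main transcripts instead of 1 dominant one.

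By role, the other constitutive genes stayed uncalled in all 3 comparisons, beside at most 9.36% of all genes called higher and 8.47% lower. For treated against control, log2 fold changes in the alpha ring ran from -0.30 for Psma6 to 0.22 for Psma1, apart from Psma8 at 1.23. In the non-catalytic beta subunits they ran from -0.20 for Psmb1 to 0.13 for Psmb2, and in the 19S ATPases from -0.29 for Psmc1 to 0.25 for Psmc4. In the 19S non-ATPase subunits the lowest was Psmd6 at -0.32. Within a group, the highest library was a median of 1.12 times the lowest in control, 1.18 in model and 1.11 in treated libraries over the 31 core and cap genes. For treated against control, libraries did not overlap for 8 of the 31 that were higher (25.8% beside 19.3% of all genes) and 7 that were lower (22.6% beside 18%), and 8 had an unadjusted p under 0.05 (25.8% beside 31.6%).

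For model against control the extremes of the same groups were Psma6 at -0.16 and Psma8 at 1.29, Psmb1 at -0.08 and Psmb2 at 0.22, Psmc1 at -0.11 and Psmc4 at 0.23, and Psmd3 at -0.16 and Psmd14 at 0.30. For treated against model they were Psma7 at -0.18 and Psma1 at 0.11, Psmb1 at -0.12 and Psmb4 at -0.06, Psmc1 at -0.17 and Psmc5 at 0.03, and Psmd6 at -0.22 beside Psmd8. Psma8 rested on few counts, with 0.448 to 0.769 CPM in control, 0.840 to 2.16 in model and 0.689 to 1.79 in treated libraries. Its adjusted p was 0.276 for model against control and 0.119 for treated against control.

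The assembly chaperones were not called either, beside at most 9.36% of all genes called higher and 8.47% lower in a comparison. With so few genes, this is not a result about them. Psmd10 (gankyrin) and Psmd5, which help build the 19S base, had log2 fold changes of 0.48 and 0.37 in treated against control, with adjusted p of 0.125 and 0.0987, while their partner Psmd9 had -0.11. Their values were 0.38, 0.33 and -0.12 in treated against model and 0.10, 0.05 and 0.01 in model against control. The 20S chaperones Psmg1 to Psmg4 ran from -0.24 for Psmg2 to -0.04 for Psmg4 in treated against control, from -0.25 for Psmg4 to -0.17 for Psmg1 in treated against model, and from -0.07 for Psmg1 to 0.21 for Psmg4 in model against control. Psmd9 lies within 10921 shared bases of the abundant liver gene Hpd on the opposite strand, with a mean count of 104000 beside 1390. In all, 12 of the 49 genes overlap another gene that averaged at least 10 counts.

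Of the other regulators, Psme3, Psme4 and Psmf1, 0 of 3 were called in each comparison. With at most 9.36% of all genes called higher and 8.47% lower in a comparison, this is not a result about these regulators. Whether they differed from the PA28 pair was not tested. The nuclear activator Psme3 (PA28 gamma) had 46.3 to 47.7 CPM in control, 48.3 to 50.4 in model and 49.4 to 56.8 in treated libraries, groups that did not overlap between control and the others. Its log2 fold change in treated against control was 0.18, with an adjusted p of 0.170. Psme4 (PA200) had -0.19 and the inhibitor gene Psmf1 (PI31) 0.17 in the same comparison. In model against control Psme4 had -0.14 and Psmf1 0.21, and in treated against model Psme4 had -0.05 and Psme3 0.11.

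A list of 30 genes that work with the proteasome (ubiquitin receptors, deubiquitinases, shuttle factors and the regulators Nfe2l1 and Nfe2l2) had 0 called in model against control and 0 in treated against model. Of all genes, 0.519% were called higher and 0.596% lower in the first of these, and 5.21% and 4.44% in the second. In treated against control 1 rose (3.33% beside 9.36% of all genes) and 1 fell (3.33% beside 8.47%). Zfand2a, a stress-induced partner of the 19S cap, had 6.26 to 9.01 CPM in control, 8.31 to 10.7 in model and 11.1 to 18.1 in treated libraries. It rose in treated against control by 1.05 (SE 0.22), with an adjusted p of 0.00732. Ddi2, the protease known to activate Nfe2l1, fell by 0.36 (SE 0.11), with an adjusted p of 0.0440, from 288 to 353 CPM in control to 245 to 264 in treated libraries. The 20S maturation factor Pomp had 87.5 to 99.8 CPM in control and 99.6 to 109 in treated libraries and was not called. The medians of the list were -0.01, 0.02 and 0.01 in the 3 comparisons.

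A list of 25 genes of MHC class I processing and interferon-gamma response, 24 of them tested, had 1 called higher in model against control (4.17% beside 0.519% of all genes). In treated against model 2 were higher (8.33% beside 5.21%) and 1 lower (4.17%, close to 4.44%). In treated against control 9 were higher (37.5% beside 9.36%) and 1 lower (4.17% beside 8.47%). Nlrc5, the transactivator of class I and immunoproteasome genes, had 14.9 to 18.4 CPM in control, 28.5 to 33.7 in model and 15.7 to 22.8 in treated libraries. It rose in model against control (log2 fold change 0.87, adjusted p 0.0275) and fell in treated against model (-0.65, adjusted p 0.0246). Psme1 and Psme2 had log2 fold changes of 0.21 and 0.31 in treated against model. Whether Nlrc5 had a part in any difference of the proteasome genes was not tested.

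Cxcl10 and the receptor gene Ifngr1 rose in treated against model, with log2 fold changes of 2.39 (adjusted p 0.0125) and 0.60 (adjusted p 0.00853). In treated against control, genes that rose included Tapbp (0.83), B2m (0.38), H2-D1 (0.87), Irf8 (1.24), Ifngr1 (0.60), Gbp3 (1.51), Igtp (1.07) and Cxcl10 (2.96), and Iigp1 (-0.57) fell, with adjusted p from 0.00167 to 0.0470. Tap1 had 17.6 to 24.7 CPM in control and 17.2 to 24.9 in treated libraries, and its groups overlapped. Interferon-gamma itself, Ifng, had at most 12 counts in any library and was at 0 in 6 of 9. H2-K1 had 145 CPM in control 2 beside 549 and 539 in controls 1 and 3, and Psmb8, Psmb9, Psmb10 and Psme2b were also lowest in control 2. Other immune genes were not: H2-D1 was lowest in control 1 (773 CPM beside 884 in control 2). Psme2 was lowest in control 1 too (48.5 CPM), and Psme1 in control 3 (57.9 CPM).

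Some markers of other cell types also differed between the groups, and whether they varied together with the immune genes was not tested. Of 22 leukocyte markers, 2 rose in model against control (9.09% beside 0.519% of all genes), 6 in treated against model (27.3% beside 5.21%) and 9 in treated against control (40.9% beside 9.36%). None was called lower, but 7 of 22 had a negative log2 fold change in treated against model and 5 in treated against control. Their summed level was 175 to 297 CPM in control, 274 to 355 in model and 412 to 691 in treated libraries, with control 2 lowest and treated 3 highest, and none of the 22 was at 0 in any library. The phagocyte marker Cd68 (7.25 to 7.65 CPM in control, 12 to 20 in model and 46.2 to 59.1 in treated libraries) rose in all 3 comparisons. The Kupffer cell marker Clec4f (log2 fold changes of 0.22, -0.09 and 0.13) was not called, nor were the T cell gene Cd3e (0.52, -1.85 and -1.33) and the B cell gene Ms4a1 (0.32, -1.65 and -1.33), given in the order model against control, treated against model and treated against control. Endothelial markers went the other way: of 10, 6 fell in model against control (beside 0.596% of all genes), 5 in treated against model (beside 4.44%) and 10 in treated against control (beside 8.47%), and their sum was 296 to 382, 125 to 149 and 68.6 to 105 CPM. Of 12 hepatocyte markers, 0 were called in model against control. In treated against model 1 was higher (beside 5.21% of all genes) and 2 were lower (beside 4.44%). In treated against control 0 were higher (beside 9.36%) and 5 were lower (beside 8.47%). Over the 12, log2 fold changes in that comparison ran from -1.15 for Cyp2e1 to 1.39 for Tat. The part of these cells in the differences of Psme1, Psme2 and Psmb10 was not tested.

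Skeletal muscle markers summed to 0.697 to 1.55 CPM in control, 200 in model 1, 0.899 and 0.997 in models 2 and 3, and 126 to 172 in treated libraries. Of the 8 muscle genes, Ckm and Myh1 were at 0 in each control library. Their part in the differences of treated libraries was not tested. Psme1 had 106, 102 and 103 CPM in models 1, 2 and 3, and Psme2 had 63.8, 64.2 and 63.0. Psmb10 had 40.0, 35.6 and 29.6 CPM in the same libraries, and Psmd8 had 91.1, 94.6 and 91.8. The 31 constitutive core and cap subunits summed to 2690 CPM in model 1 and 2380 in each of models 2 and 3. Their sum was 2360 to 2480 CPM in control and 2380 to 2440 in treated libraries.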

How the data were processed

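Polyadenylated RNA of 9 mouse liver libraries was sequenced, 3 in each of 3 groups taken from the labels. Per the submitters' processing notes, alignment was with HISAT2 (no version stated). Not given in the sources used here: quantification program, use of strand, annotation and genome build. The gene counts that the authors deposited are estimated counts, whole numbers that equal transcript FPKM times length times 1 constant per library, to within 1.5 counts plus 0.1% in 100% of transcripts, so they were derived from coverage. The authors also deposited FPKM per gene and per transcript. All 49 genes were in GENCODE M21, 42 with the same start and end, so coordinates are those of GRCm38.

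Tests on counts used edgeR 4.0.16 (R 4.3.3, quasi-likelihood F test, robust, TMM scaling, group as the 1 term) in 1 fit of 9 libraries, after filterByExpr with a minimum count of 10 and a minimum total of 15, which left 18113 genes. Adjustment (Benjamini-Hochberg) ran over all of them within each comparison, and calls were made at 0.05. SE is the log2 fold change divided by the square root of F. Ratios of catalytic subunits used FPKM of the gene, whose length cancels between groups, with an exact permutation test from scipy 1.17.1. Promoter windows and motif searches used RefSeq sequences (GRCm38.p6), and coding sequences were aligned with biopython 1.88.

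All genes matching the rule are named or summarised by role; those given in full are the immune genes, their constitutive counterparts and every gene called, and in each role the highest and lowest log2 fold change is named. Of the other lists, called genes are named, except 1 that is not reported here; further genes of them were picked after their values were seen. The genes, lists and tests were chosen with earlier results of these data known. Alternatives were other scalings (RLE, upper quartile), DESeq2 1.42.0, limma-voom (limma 3.58.1), no filter, only the 6 libraries compared, a replicate block and leaving out each library; library size alone, the summed counts of Psme2 with Psme2b and summed transcript FPKM for the ratios were added after seeing the data. Same-numbered libraries of different groups had deviation correlations from -0.114 to 0.113, so the numbers were not taken as pairs. Library pairs within a group differed far beyond counting noise (chi-square per degree of freedom 81.8 to 169), so no pair was treated as a repeated deposit of 1 library. The fit was tested on simulated data with 50 changed genes per fold size. In model against control, treated against model and treated against control it recovered 7, 8 and 6 genes changed 1.5-fold. For genes changed 2-fold it recovered 30, 37 and 38, with 17475, 17425 and 17406 genes tested. The changed genes were drawn only from those above a minimum mean CPM, so these rates do not cover genes of low count.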

Additional observations from a re-analysis of the deposited data

How the results depend on the processing

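Psme1, Psme2 and Psmd8 were called higher in treated against control under each of 17 alternatives (18 for Psme2), with log2 fold changes from 0.77 to 1.06, from 0.59 to 0.88 and from 0.43 to 0.79. The number of proteasome genes called higher depended more on the setting. For model against control (1) it was 2 with DESeq2, which added Psme2, and 0 to 1 when 1 library was left out. For treated against model (2) it was 1 with upper quartile scaling, with no filter and with only the 6 libraries compared, 3 with library size only, which added Psme1, and 0 to 1 when 1 library was left out. For treated against control (4) it was 5 with DESeq2 and with limma-voom, which added Psmb8, and 13 with library size only, which raised the share of higher calls among all called genes from 52.5 to 78.7%, and in treated against model from 53.9 to 80.1%, and 3 to 6 when 1 library was left out. The number called lower in treated against control (0) was 1 with DESeq2 (Psma6) and 0 to 1 when 1 library was left out (Psma6 without model 1, Psmd6 without treated 2). The cause of these changes was not tested, except that leaving out a library leaves fewer samples.

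With the replicate number as a block, though the numbers did not pair the libraries, 0 genes were called higher in model against control, 1 in treated against model (Psmd8) and 4 in treated against control. Of the 9 same-numbered pairs, 1 had a correlation over 0.1.

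Signs turned for some uncalled values. For Psmb5 in treated against model the log2 fold change was -0.025 with upper quartile scaling and -0.0013 with only the 6 libraries compared, and -0.028 to 0.053 when 1 library was left out (below 0 without model 2, model 3, treated 1 or treated 3). In model against control, leaving out 1 library gave -0.072 to 0.088 for Psmb6 (below 0 without control 2 or model 1) and -0.13 to 0.57 for Psmb9 (below 0 without control 2). For the log2 ratio of Psmb9 to Psmb6 it gave -0.060 to 0.58 in model against control (below 0 without control 2) and -0.14 to 0.25 in treated against model (below 0 without model 1 or treated 3).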
